A study of Mus musculus with 2 samples.

Results

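The aminoacyl-tRNA synthetases are the enzymes that join each amino acid to its transfer RNA. Their mRNA levels were compared between immortalised mouse embryonic fibroblasts (MEFs) with intact p65 and MEFs lacking it. p65, encoded by Rela, is the NF-kB subunit that activates many inflammatory and survival genes. The 35 synthetase genes followed here, 19 for the cytosolic and 16 for the mitochondrial enzymes, were picked by name out of 16881 transcripts, and all 35 were found, 16 of them under an older symbol that lacks the final digit. The cytosolic aspartyl enzyme was not among the picked members and is given with the related genes. Both cultures were C57BL/6 fibroblasts, p65+/+ in 1 library and p65-/- in the other, and the labels name no treatment. The sources used here do not say how the lines were immortalised, whether they came from littermates or which part of Rela is deleted. With 1 library per genotype no difference has a replicate check, no p-value is given, and a difference between these cultures cannot be told apart from an effect of the genotype.

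The wild-type library held 20794476 fragments (read pairs) and the p65-null library 15441394. Levels are given as normalised CPM, fragment counts scaled to a common library size with TMM factors. Ratios are p65-null over wild-type, each with a 95% Clopper-Pearson interval that covers counting error only. Rela itself was at 90.5 CPM in the wild-type and 13.1 CPM in the p65-null library (log2 ratio -2.79, -3.01 to -2.58). All 12 fibroblast markers looked up were measured, summing to 12690 CPM (wild-type) and 25970 CPM (p65-null). They did not move together: 8 were higher and 2 lower by 1.5-fold or more, with log2 ratios from -3.11 to 4.54. Among all measured genes 22.2% were higher and 25.0% lower by that fold. Of the epithelial, endothelial, leukocyte, skeletal muscle and neural markers, 1 of each list reached the minimum of 1 CPM (Krt19, Kdr, Csf1r, Acta1 and Tubb3). The epithelial list summed to 16.9 CPM (wild-type) and 51.4 CPM (p65-null), and the neural list to 77.3 and 27.6 CPM. In the wild-type library the endothelial, leukocyte and skeletal muscle lists summed to 3.40, 2.22 and 3.61 CPM. The cultures also differed in sex-linked genes, with 956 wild-type and 2 p65-null fragments of Xist and 0 and 207 fragments of the Y-linked Kdm5d. Of the members, 0 lie on the X or Y chromosome, and this difference cannot be told apart from that in genotype.

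Each synthetase recognises its amino acid, activates it with ATP and transfers it to the matching tRNA, so that the set as a whole fixes the genetic code. The enzymes fall into class I and class II, which have unrelated catalytic folds. Mitochondria translate their own small genome with a separate set of nuclear-encoded synthetases. Gars1 and Kars1 supply the glycyl and lysyl enzymes of both compartments, and mitochondrial glutaminyl-tRNA is made by transamidation rather than by an enzyme of its own. Several cytosolic enzymes sit in the multisynthetase complex on the scaffold proteins Aimp1, Aimp2 and Eef1e1. Many cytosolic synthetase genes are known targets of ATF4, the transcription factor of the amino acid and integrated stress response, which binds C/EBP-ATF elements.

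Promoter sequences of the members were searched for the elements of known regulators. Windows from 250 bases before to 50 bases after the RefSeq start (GRCm38.p6) were available for 26 members, 12 cytosolic and 14 mitochondrial. The C/EBP-ATF element was searched as TGATGNAA on both strands. It was present in 5 of the 12 cytosolic promoters and in 0 of the 14 mitochondrial ones, against 3.97% of all 32851 promoter windows and 2.57% of 9642 measured genes. The genes were Aars1, Gars1, Iars1, Tars1 and Yars1, all of them on the list of known ATF4 targets. Most of the 12 cytosolic windows were of listed genes, and those of the listed Eprs1, Mars1 and Sars1 held no such element. Aars1 had 2 elements. The stretches below are shown because they carry this element, and are read 5′ to 3′ on the strand that carries the element, which is in capitals.
Aars1, upstream element (chr8:111033696-111033747, minus strand): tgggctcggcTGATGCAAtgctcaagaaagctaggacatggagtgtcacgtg
Aars1, downstream element (chr8:111033817-111033868, minus strand): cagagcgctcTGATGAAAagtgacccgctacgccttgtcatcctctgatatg
Gars1 (chr6:55037937-55037988, minus strand): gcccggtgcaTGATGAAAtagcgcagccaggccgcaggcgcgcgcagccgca
Iars1 (chr13:49682103-49682154, minus strand): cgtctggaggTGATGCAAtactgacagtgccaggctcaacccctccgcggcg
Tars1 (chr15:11399656-11399707, plus strand): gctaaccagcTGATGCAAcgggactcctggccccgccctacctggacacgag
Yars1 (chr4:129189872-129189923, plus strand): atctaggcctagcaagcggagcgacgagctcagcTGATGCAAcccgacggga

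The windows hold only bases near the start, so nearness of the elements to it was fixed by the search. In gene orientation the elements began at position -112 and 9 in Aars1, -30 in Gars1, 7 in Iars1, -15 in Tars1 and 3 in Yars1. Position 0 is the first base of the start used for the window, which can differ from the outer end of the gene. The Aars1 window, 111033592 to 111033891, lies inside the gene span of 111027778 to 111055569. Of these 6 elements, 4 read TGATGCAA and those of Gars1 and the downstream part of Aars1 read TGATGAAA. The E-box CACGTG, the site of Myc-type factors, was found in 4 of 12 cytosolic promoters (Aars1, Farsb, Iars1 and Tars1) and 1 of 14 mitochondrial ones (Ears2), against 7.15% of all windows and 11.9% of measured genes. The upstream stretch of Aars1 printed above ends in such an E-box. The motif of NRF1, a factor that drives nuclear genes for mitochondrial proteins, was searched on both strands too. It occurred in 3 cytosolic promoters (Farsb, Kars1 and Tars1) and 2 mitochondrial promoters (Iars2 and Mars2), against 4.60% of all windows and 11.8% of measured genes. The kB motif of NF-kB was found in 1 cytosolic promoter (Iars1) and 1 mitochondrial promoter (Iars2), against 8.46% of all windows and 12.5% of measured genes. A match is a description of the letters in these windows.

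As a group, the synthetases differed little between the libraries. The median log2 ratio was 0.08 for the 19 cytosolic genes (order-statistic interval over the genes -0.31 to 0.38) and 0.04 for the 16 mitochondrial genes (-0.37 to 0.46), beside -0.03 for all 12135 measured genes. The sign of these medians was not stable. With total counts the cytosolic median was 0.025 and the mitochondrial -0.015. After a correction for GC content and length they were -0.0016 and -0.020. Both medians were also negative when libraries were scaled to ribosomal protein genes, a scaling that moved the median of all genes by -0.41. Relative to the median of all genes under that scaling, the cytosolic and mitochondrial medians were 0.11 and 0.07 higher. The medians differed by 0.04 on the log2 scale (cytosolic minus mitochondrial), and the means by -0.025, so that the direction between the compartments turned with the summary used. In this bulk measurement, less RNA per cell and fewer cells of a type cannot be told apart.

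Most members lay within 1.5-fold. Ratios fell below 1 for 17 of 35 members and above 1 for 18, against 51.2% and 48.8% of measured genes. A difference of 1.5-fold or more was found for 8 of 35 synthetases (22.9%), against 47.2% of all measured genes and 42.0% of the 9541 genes at least as abundant as the least abundant member. A difference of 2-fold or more was found for 2 of 35 (5.71%), against 25.9% of measured genes. By direction, 3 members were lower in the null culture by 1.5-fold or more and 5 were higher, against 25.0% and 22.2% of measured genes. Both members past 2-fold were lower, as were 13.8% of measured genes, and 0 were higher by that margin, against 12.1%. Of the 9541 genes, 23.8% were lower and 18.2% higher by 1.5-fold or more, and 11.6% and 8.31% by 2-fold or more. The interquartile range of the log2 ratio ran from -0.24 to 0.32 for cytosolic members, from -0.26 to 0.46 for mitochondrial members and from -0.59 to 0.50 for all measured genes.

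**Figure D1:**
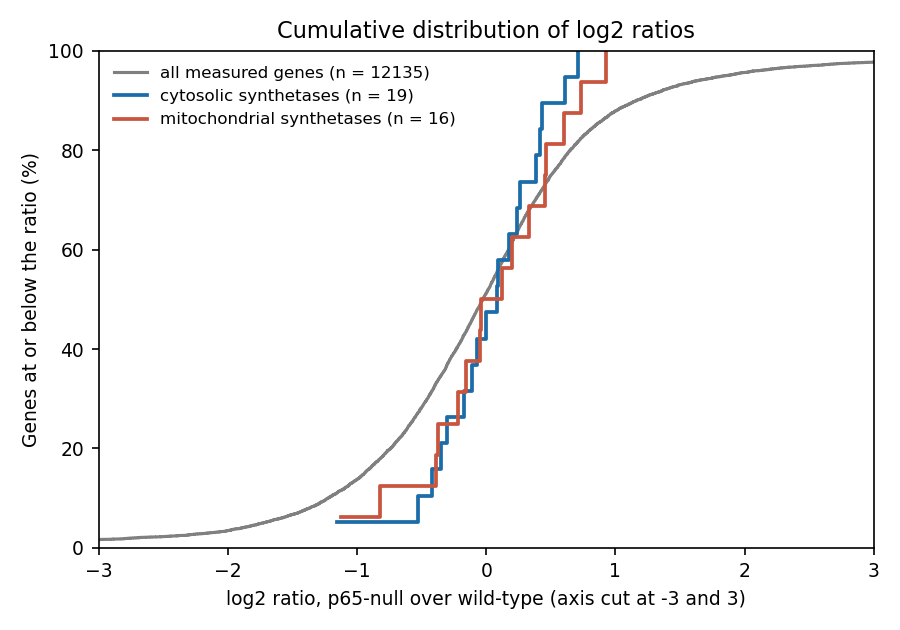
Cumulative percentage of genes (vertical axis) at or below a given log2 ratio of p65-null over wild-type (horizontal axis, cut at -3 and 3) for all 12135 measured genes in grey, the 19 cytosolic synthetases in blue and the 16 mitochondrial synthetases in red. The synthetase curves pass 50% at medians of 0.08 and 0.04, and both lie inside -1.16 to 0.93.

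Among the cytosolic enzymes, 16 of 19 lay within 1.5-fold. The exception towards lower levels was Hars1, the histidyl enzyme (transcript NM_008214, GRCm38 chromosome 18, 36766528 to 36783205). It was at 188 CPM in the wild-type and 84.3 CPM in the p65-null library, 2.23-fold lower (2.09 to 2.38). Its log2 ratio of -1.16 stood at percentile 11.0 of all measured genes, and it was between -1.56 and -1.04 under the 10 alternative settings.

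The cytosolic members higher in the p65-null library by at least 1.5-fold were Aars1 and Sars1. Aars1, the alanyl enzyme, which also hydrolyses mischarged tRNA (chromosome 8, 111027778 to 111055569), was at 397 CPM in the wild-type and 651 CPM in the p65-null library, 1.64-fold higher (1.59 to 1.69). Its annotation overlaps that of Ddx19b, at 25.7 and 29.2 CPM, by 3974 bases. Sars1, the seryl enzyme, which also charges the tRNA for selenocysteine (chromosome 3, 108424864 to 108445259), was at 234 and 357 CPM, 1.53-fold higher (1.47 to 1.59). Both carry counting intervals that are narrow beside the difference, but they fell under 1.5-fold in part of the alternative settings, with lowest log2 ratios of 0.31 and 0.21.

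The multisynthetase complex holds 7 of the cytosolic members, and all 7 lay within 1.5-fold in both directions. Lars1, the leucyl enzyme, which also senses leucine for mTORC1, was the lowest of them, at 202 CPM in the wild-type and 140 CPM in the p65-null library (log2 ratio -0.53, -0.61 to -0.46). Iars1, the isoleucyl enzyme, was at 222 and 174 CPM, a log2 ratio of -0.35, and Rars1, the arginyl enzyme, at 236 and 191 CPM, a log2 ratio of -0.31. The glutaminyl enzyme Qars1 was the highest in ratio, at 88.6 and 118 CPM and a log2 ratio of 0.42 (0.32 to 0.51). Mars1, the methionyl enzyme, followed at 0.38, the bifunctional glutamyl-prolyl enzyme Eprs1 at 0.24 and the lysyl enzyme Kars1 at 0.08. The complex therefore held members on both sides of 0, with a median of 0.08, against 0.05 for the 12 cytosolic members outside it.

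The other cytosolic members lay between -0.42 and 0.43. Vars1, the valyl enzyme, was at 595 CPM in the wild-type and 445 CPM in the p65-null library (log2 ratio -0.42, -0.46 to -0.38). The cysteinyl enzyme Cars1 was at 72.1 and 97.3 CPM, a log2 ratio of 0.43 (0.33 to 0.54). Wars1, the tryptophanyl enzyme, whose gene is known to be induced by interferon, was at 87.5 and 105 CPM, 1.20-fold higher (1.12 to 1.28).
The glycyl enzyme Gars1 had a log2 ratio of -0.11, the asparaginyl enzyme Nars1 of -0.17, the threonyl enzyme Tars1 of -0.07 and the tyrosyl enzyme Yars1 of 0.09. Phenylalanyl synthetase is built from the Farsa and Farsb subunits, which were at 0.18 (0.10 to 0.26) and -0.00 (-0.11 to 0.10).

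**Figure D2:**
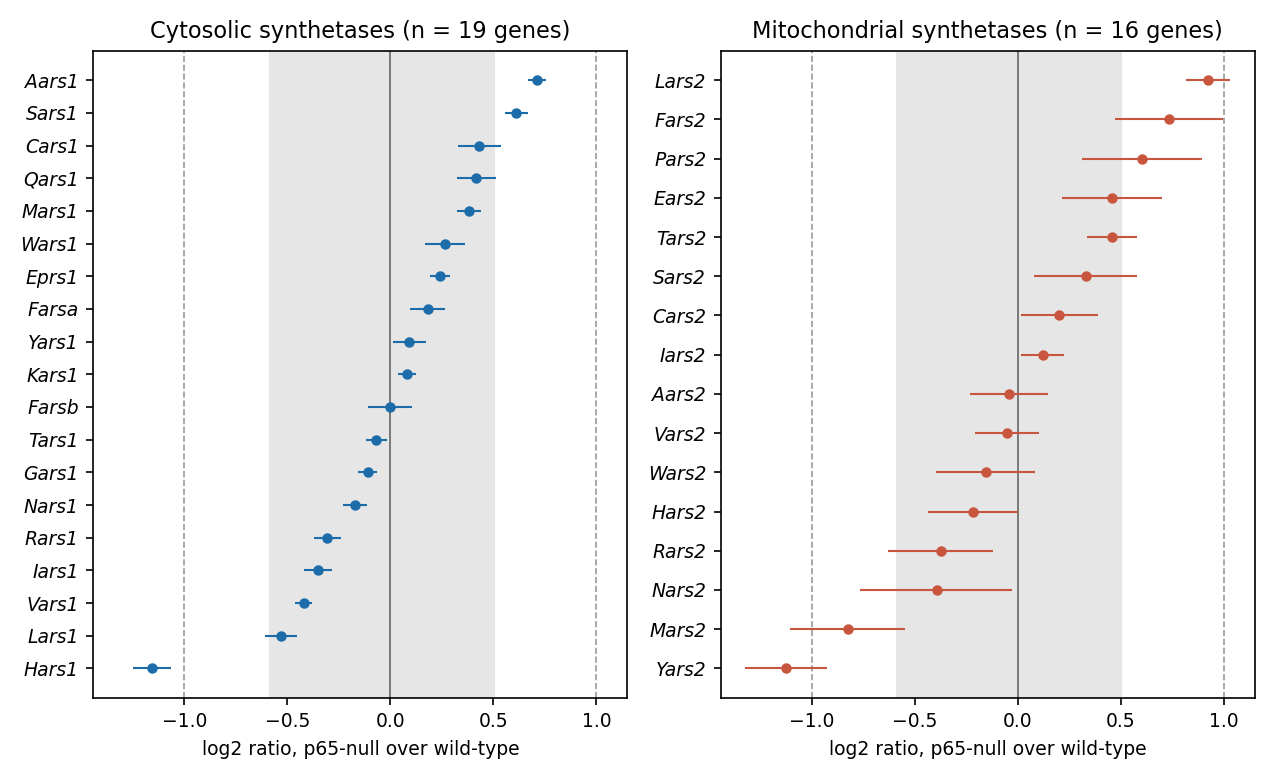
Log2 ratio of p65-null over wild-type normalised CPM (horizontal axis) for each cytosolic (left) and mitochondrial (right) synthetase gene, with 95% counting intervals as bars, 1 library per genotype. The grey band is the interquartile range of all measured genes (-0.59 to 0.50) and the dashed lines mark 2-fold; Hars1 and Yars2 are the points past the dashed line at -1.

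Among the mitochondrial enzymes, 11 of 16 lay within 1.5-fold, 2 were lower and 3 higher by that margin. Yars2, the mitochondrial tyrosyl enzyme (transcript NM_198246, chromosome 16, 16302965 to 16309640), was at 39.8 CPM in the wild-type and 18.3 CPM in the p65-null library, 2.18-fold lower (1.90 to 2.50). Its log2 ratio was -1.12 and stayed between -1.53 and -1.01 under the 10 alternative settings. Mars2, the methionyl enzyme (chromosome 1, 55237177 to 55240058), was at 17.7 and 9.97 CPM, 1.77-fold lower (1.46 to 2.15). It was at least 1.5-fold lower in each of the 9 alternative settings that give it a value. Settings that change only the expression minimum leave a member's ratio as it was by construction, in this and the other tallies. No level per length and no GC correction is given for Mars2, because its GENCODE transcript is longer than the whole RefSeq gene of the transcript in the table.

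On the higher side, Lars2, the mitochondrial leucyl enzyme (chromosome 9, 123366927 to 123462675), was at 58.0 CPM in the wild-type and 110.2 CPM in the p65-null library, 1.90-fold higher (1.76 to 2.05). This log2 ratio of 0.93 was the highest of the 35 members and was at least 1.5-fold in 9 of 10 alternative settings, the exception being scaling to ribosomal protein genes, where it was 0.52. Fars2, which works as a single chain unlike its cytosolic counterpart, was at 10.5 and 17.6 CPM, 1.66-fold higher (1.39 to 1.99). Pars2, the prolyl enzyme, was at 8.89 and 13.4 CPM, 1.52-fold higher (1.24 to 1.86). Fars2 rested on 223.5 and 266 fragments and Pars2 on 188.5 and 203.5, and their intervals reach under 1.5-fold. The annotation of Lars2 overlaps that of the long non-coding RNA Gm46137 by 8819 bases. That of Fars2 overlaps the long non-coding RNA Gm40912 by 20270 bases. No level was available for either RNA.

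The remaining 11 mitochondrial members ran from -0.39 in Nars2 to 0.46 in Ears2 and Tars2. Tars2, the threonyl enzyme, was at 52.4 and 72.0 CPM (log2 ratio 0.46, 0.33 to 0.58), and Ears2, the glutamyl enzyme, at 13.4 and 18.4 CPM (0.22 to 0.70). Sars2 had a log2 ratio of 0.33, Cars2 of 0.20 and Iars2 of 0.12. Below 0 were Nars2, Rars2 at -0.37, Hars2 at -0.22, Wars2 at -0.16, Vars2 at -0.05 and Aars2 at -0.04. The intervals of Aars2, Vars2 and Wars2 included 0, as did that of Farsb, so 31 of 35 intervals excluded it, against 79.3% of all measured genes. At this depth an interval that excludes 0 separates the libraries and says nothing on the spread between cultures.

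Summed over the genes, cytosolic synthetases took 4815 CPM in the wild-type and 4958 CPM in the p65-null library (log2 ratio 0.04, 0.03 to 0.06), which was -0.013 without TMM factors and -0.36 when scaled to ribosomal protein genes. The mitochondrial sum was 452 and 513 CPM, a log2 ratio of 0.18 (0.14 to 0.22), or -0.22 when scaled to ribosomal protein genes. The cytosolic sum was therefore close to even, while the mitochondrial sum was 1.13-fold higher. Lars2 alone was at 58.0 CPM in the wild-type and 110.2 CPM in the p65-null library, followed by Tars2 at 52.4 and 72.0 CPM. The difference in the mitochondrial sum thus rested largely on Lars2.

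Per kilobase of transcript, cytosolic genes had median levels of 69.1 CPM per kb (wild-type) and 81.8 CPM per kb (p65-null). The 15 mitochondrial genes with a length had medians of 8.04 and 8.62 CPM per kb, and all measured genes of 9.27 and 8.91. Kars1 was highest, at 219 and 232 CPM per kb, followed by Gars1 at 183 and 169; both genes serve both compartments. The lowest cytosolic gene was Cars1, at 22.4 and 30.2 CPM per kb. The highest mitochondrial gene was Yars2 in the wild-type library, at 25.3 CPM per kb, and Tars2 in the p65-null library, at 30.0, so that the sets overlapped in the wild-type library through Cars1 and Yars2 and lay just apart in the p65-null library. Nars2 was lowest, at 2.22 and 1.70 CPM per kb.

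**Figure D3:**
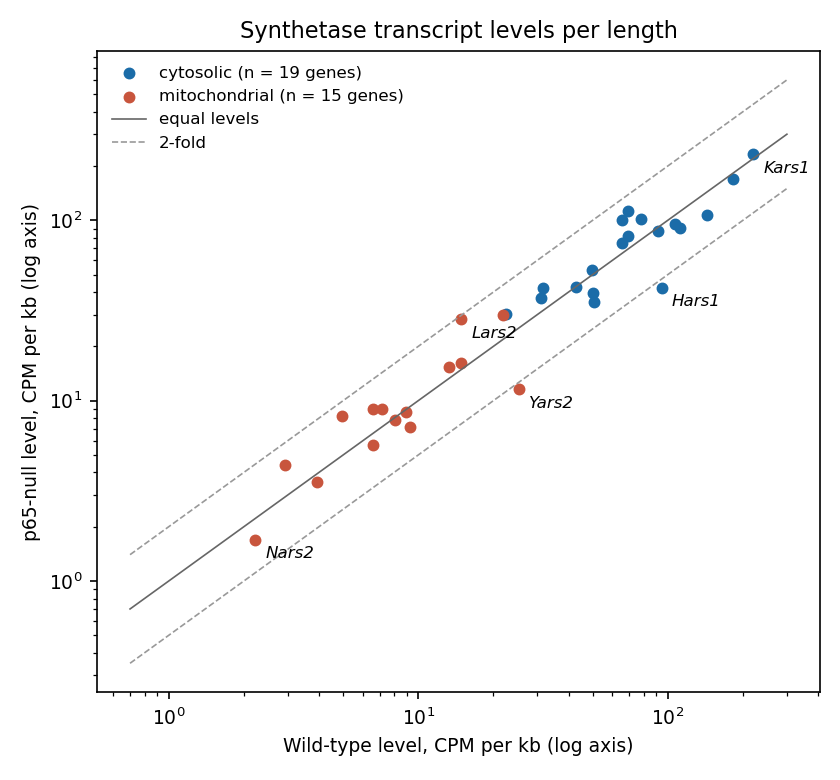
Level of each synthetase transcript in the wild-type (horizontal axis) and p65-null library (vertical axis), in normalised CPM per kb of GENCODE transcript, both on log axes, for 34 genes. The solid line marks equal levels and the dashed lines 2-fold; cytosolic genes in blue lie from 22.4 CPM per kb upward in the wild-type library, and most mitochondrial genes in red lie below.

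Each mitochondrial enzyme was set beside the cytosolic enzyme for the same amino acid, 16 pairs with Eprs1 used for both glutamate and proline and Farsa for phenylalanine. The cytosolic gene had the higher level per kb in 15 of 15 pairs with a length for both genes, in either library, by a median of 9.13-fold (wild-type) and 9.09-fold (p65-null). Ratios of the partners were on the same side of 0 in 9 pairs and on opposite sides in 7. Leucine showed the widest gap among pairs with the mitochondrial partner higher in ratio, with Lars1 at -0.53 and Lars2 at 0.93. The cytosolic excess for leucine per kb was 3.41-fold (wild-type) and 1.24-fold (p65-null). For tyrosine it went the other way, from 1.97-fold to 4.58-fold, with Yars1 at 0.09 and Yars2 at -1.12. For histidine the excess was 14.4-fold (wild-type) and 7.50-fold (p65-null), with Hars1 at -1.16 and Hars2 at -0.22.

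The members were also grouped by known biology. The 13 cytosolic genes listed as ATF4 targets had a median log2 ratio of 0.09 (Aars1 and Sars1 higher by 1.5-fold, 0 lower), and the 6 others had a median of 0.04, with Hars1 alone past 1.5-fold. The 5 genes with a C/EBP-ATF element in the printed promoters ranged from -0.35 in Iars1 to 0.71 in Aars1, with a median of -0.07, against 0.24 for the 7 cytosolic genes whose windows held no such letters. Class I cytosolic enzymes had a median of 0.09 and class II enzymes of -0.00. Among mitochondrial enzymes the medians were -0.05 for class I and 0.33 for class II, which became, once corrected for GC and length, -0.06 and 0.01.

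Transcript GC content moved with the ratio. The Spearman correlation across genes, which share both libraries and are not independent replicates, was 0.43 over the 34 members with a GC content and 0.44 over measured genes. These members ran from 44.1% GC in Rars2 to 60.9% in Vars1. After loess correction for GC content and then length, 3 of 34 were lower by 1.5-fold or more and 1 was higher. The lower ones were Hars1 at -1.37, Yars2 at -1.46 and Vars1 at -0.79, and the higher one was Lars2 at 0.84. Aars1 was then at 0.42, Sars1 at 0.33, Fars2 at 0.20 and Pars2 at 0.48, and the cytosolic and mitochondrial medians were -0.00 and -0.02. What part GC content has in the uncorrected ratios was not tested beyond this correction.

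**Figure D4:**
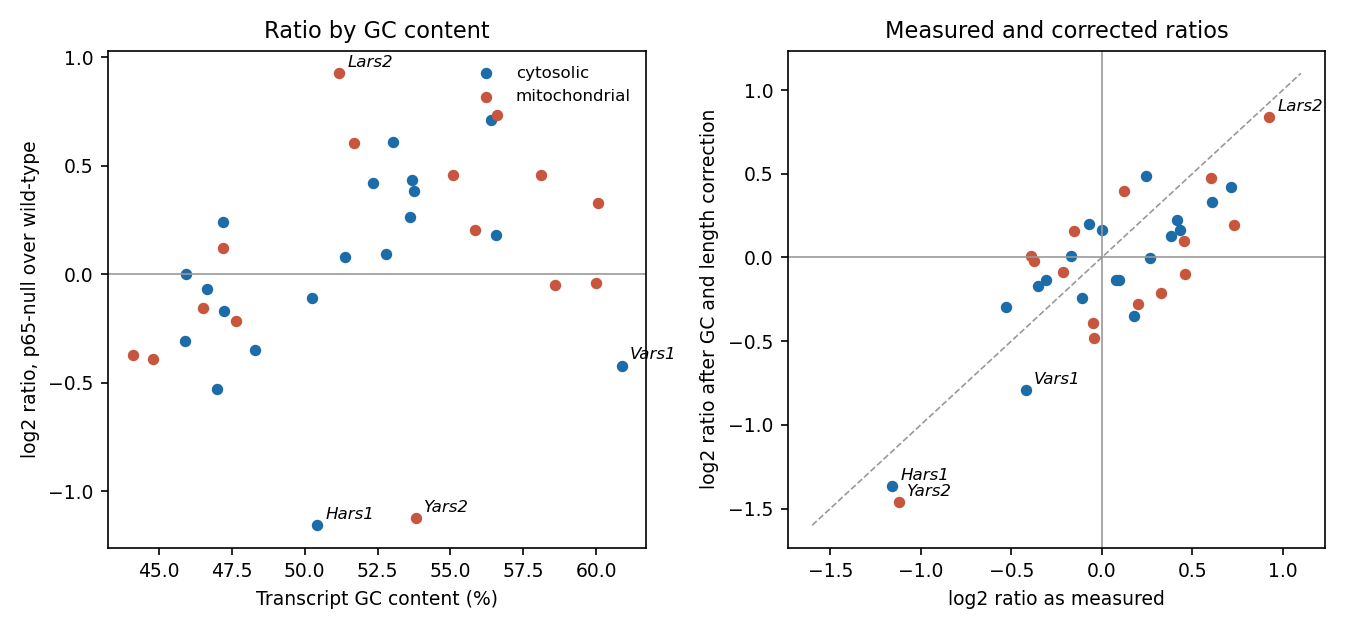
Left, log2 ratio of p65-null over wild-type against transcript GC content in percent for the 34 synthetases with a GC content; right, the ratio after GC and length correction (vertical axis) against the ratio as measured (horizontal axis), with a dashed line of equality. Hars1 goes from -1.16 to -1.37, Yars2 from -1.12 to -1.46 and Lars2 from 0.93 to 0.84, while many members near 0 change sides.

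The genes around the 8 members at least 1.5-fold apart were looked at after their values were seen, taking the 3 nearest measured genes on each side. Those around Hars1 and Yars2 are given in full. Hars1 and Hars2 lie head to head on chromosome 18 with annotations that overlap by 4 bases, yet their ratios were -1.16 (-1.25 to -1.07) and -0.22 (-0.43 to -0.00). On the other side of Hars1, the nucleolar WD-repeat gene Wdr55, 2820 bases away, was at 62.6 CPM in the wild-type and 30.1 CPM in the p65-null library (log2 ratio -1.06), the splicing factor gene Ik was at -0.60 and the germ cell gene Dnd1, near the expression minimum, at -1.36. Beyond Hars2, Zmat2 was at 0.09 and Pcdhb5, 537176 bases away, at 2.96. Hars1 and the 3 genes on its side of the shared start thus lay at -0.60 or lower. The median log2 ratio of the 325 measured genes on chromosome 18, which also carries Lars1 and Nars1, was -0.50, beside -0.45 for the X chromosome and -0.44 for chromosome 5.

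Yars2 lies tail to tail with Dnm1l, the gene of the mitochondrial fission GTPase, at a distance of 2588 bases. Dnm1l was at 71.0 CPM in the wild-type and 33.4 CPM in the p65-null library (log2 ratio -1.09, -1.24 to -0.94), beside -1.12 for Yars2. On the other side the desmosomal gene Pkp2 was at -2.73, and the next measured genes, Spidr and Cebpd, were at -0.25 and 0.01. Beyond Dnm1l, Fgd4 was at 1.04 and Top3b at 0.59. Around Mars2, 5 of 6 neighbours were below 0, with a median of -0.80. The neighbour medians of Hars1 at -0.41, Aars1 at 0.24 and Sars1 at 0.13 were on the side of the member. For Yars2 the neighbour median was -0.12, with 3 of 6 below 0, beside -0.03 for all measured genes. By contrast, the neighbours of Lars2 had a median of -0.18, opposite to its own 0.93. Fars2 and Pars2, also higher in the p65-null library, had neighbour medians of -0.31 and -0.53. What part a gene's position has in its ratio was not tested.

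**Figure D5:**
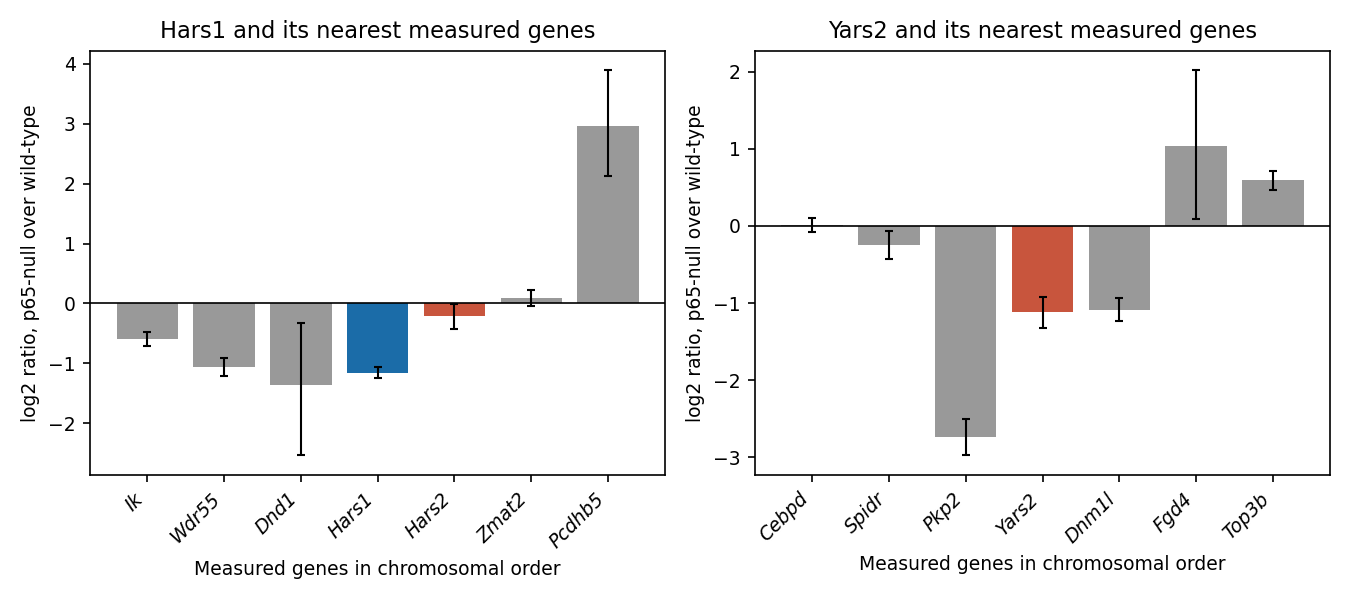
Log2 ratio of p65-null over wild-type (vertical axis) for Hars1 (left, blue) and Yars2 (right, red) and the 3 nearest measured genes on each side in chromosomal order, with 95% counting intervals as error bars; Hars2 is also in red. Ik, Wdr55, Dnd1 and Hars1 lie below 0 beside Hars2 at -0.22, and Yars2 at -1.12 stands beside Dnm1l at -1.09.

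Counts in the lists that follow stand beside 25.0% of all measured genes lower and 22.2% higher by 1.5-fold or more. Other genes of tRNA charging ranged from -1.46 in Eef1e1 to 1.37 in Prorsd1. Of the 3 scaffold genes of the multisynthetase complex, Eef1e1 was at 51.4 CPM in the wild-type and 18.7 CPM in the p65-null library, 2.75-fold lower (2.41 to 3.15), Aimp2 had a log2 ratio of -0.54 (-0.65 to -0.44) and Aimp1 of 0.14. The cytosolic aspartyl enzyme gene, listed as Dars, was at 94.0 CPM in the wild-type and 78.8 CPM in the p65-null library (log2 ratio -0.26, -0.36 to -0.15). Its direction turned with the GC and length correction, which put Dars at 0.47. Gatc, a subunit of the amidotransferase that makes mitochondrial glutaminyl-tRNA, was at 24.0 and 12.0 CPM (interval of the log2 ratio -1.25 to -0.75), while its partners Qrsl1 and Gatb were at -0.53 and 0.54.
Among 9 proofreading and selenocysteine-charging genes, 3 were higher by 1.5-fold or more and 0 lower, Prorsd1 at a log2 ratio of 1.37, Dtd2 at 1.25 and Dtd1 at 1.14. Dtd1 and Dtd2 remove wrongly charged amino acids from tRNA.

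Of 26 measured tRNA maturation and export genes, which act before charging, 8 were lower and 3 higher by 1.5-fold (median -0.11, or 0.0078 with upper quartile factors). Trmt10c, a subunit of mitochondrial RNase P, was at -1.90, Trnt1, which adds the CCA end, at -1.19, and Pop1, a subunit of nuclear RNase P, at -1.06, while the splicing endonuclease subunit Tsen34 was at 0.91. After the GC and length correction Trnt1 was at -0.35.
Of 45 tRNA modification genes, 14 were lower and 4 higher by that fold (median -0.13). The pseudouridine synthase gene Pus7 was at -1.22 and Cdk5rap1, which thiolates mitochondrial tRNA, at 1.15. Of 21 RNA polymerase III genes, 7 were lower and 2 higher (median -0.23). The subunit Polr3g was at -2.28 and its paralog Polr3gl at 1.08, and the repressor Maf1 was at 0.89.

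Of 30 measured amino acid response targets, 9 were higher by 1.5-fold or more and 0 lower, and their median was 0.20, or -0.20 when scaled to ribosomal protein genes. Sesn2, a leucine sensor, was at 11.5 CPM in the wild-type and 45.5 CPM in the p65-null library, Trib3 at 5.73 and 17.3 CPM and Chac1 at 7.31 and 20.8 CPM. Atf4 itself had a log2 ratio of 0.10, Asns, the asparagine synthetase gene, of 0.19, and Ddit3, which overlaps Mars1 by 71 bases, of -0.18. The 8 genes of eIF2alpha kinases and their partners had a median of -0.50, or -0.048 once corrected for GC and length, with Impact at -0.86 and the kinase gene Eif2ak4, which senses uncharged tRNA, at 0.36.
In the machinery that uses charged tRNA, 78 mitochondrial ribosomal protein genes had a median of 0.02 (10 lower and 6 higher by 1.5-fold), which was -0.39 when scaled to cytosolic ribosomal protein genes and -0.15 once corrected for GC and length. The 12 mitochondrial translation factors had a median of 0.04 (3 lower and 1 higher). The 81 measured cytosolic ribosomal protein genes had a median of 0.45 (27 higher by 1.5-fold and 0 lower), beside 0.08 for the cytosolic synthetases.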

How the data were processed

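RNA from 1 wild-type and 1 p65-null culture was sequenced on an Illumina instrument, per the labels. Per the submitters' processing notes, mm10, STAR 2.4, HOMER, bcl2fastq 2.16 and edgeR were used, with no roles given. The sources used here do not give the counting rule, strand or annotation release, so overlapping or near-identical genes may share reads. The deposited table, although called raw counts, holds a scaled signal: both columns sum to about 18117930. All 15555 wild-type and 15479 p65-null values up to 20000 steps were whole multiples (100%, tolerance 0.1 step) of 0.436 and 0.587. Dividing by 2 steps, a read pair, gave fragments, which can end in 0.5. With 1 library each, ratios with counting intervals stand in place of a count test.

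Of 16881 transcripts, 16739 matched RefSeq and 87 GENCODE M21 names; 55 did not match. TMM factors from edgeR 4.0.16 (R 4.3.3) were 1.02 and 0.981. Measured means a level of 1 CPM or more on average over both libraries (12135 genes, all 35 members among them, each with 97 to 12621 fragments per library). Zeros were set to 3 fragments. Lengths and GC content, corrected for by loess (span 0.3), are of the matched GENCODE transcript (97.1% of measured genes). After the values were seen, 354 transcripts whose GENCODE model was longer than the whole RefSeq gene, Mars2 among them, were left without length and GC content. Promoters are from RefSeq. DESeq2 1.42.0 size factors were 1 of the alternatives. In simulated data made for this comparison (12135 genes), the interval covered the simulated ratio in 95.4% of unchanged and 98.0% of 2-fold genes. The simulated counts held counting error only, which is the error the interval assumes. They therefore check the calculation and say nothing on the spread between cultures.

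All members were named with their ratios, with full values for those at least 1.5-fold apart and the extremes of each compartment; from related lists, up to 3 genes each way by the interval end nearest 1, plus genes named by role after their values were seen (Aimp1, Aimp2, Dars, the amidotransferase genes, Atf4, Asns, Ddit3, Eif2ak4 and neighbours). A gene that the rule names is not reported here. Members and lists were chosen with earlier results of these data known.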

Additional observations from a re-analysis of the deposited data

How the results depend on the processing

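With 1 library per genotype, no setting adds replication, and no paired analysis was possible because each genotype has 1 library. With scaling to ribosomal protein genes the cytosolic median was -0.32, the cytosolic and mitochondrial sums -0.36 and -0.22, and 10 synthetases were at least 1.5-fold lower and 0 higher. In that setting Eprs1 was at -0.16, Farsa at -0.22, Kars1 at -0.32, Mars1 at -0.022, Wars1 at -0.14, Yars1 at -0.31, Cars2 at -0.20, Iars2 at -0.28 and Sars2 at -0.075. The medians were -0.54 for tRNA modification, -0.20 for amino acid response targets, -0.90 for eIF2alpha kinases and partners, -0.39 for mitochondrial and 0.043 for cytosolic ribosomal proteins. Genes at least 2-fold apart numbered 3011 lower and 901 higher, so that 23.0% of them were higher. That share was 46.8% in the main setting and from 43.0% to 55.1% in the other alternative settings.

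Total counts gave sums of -0.013 (cytosolic) and 0.13 (mitochondrial) and 3 members at least 1.5-fold higher. Upper quartile factors, which moved the median of all genes by 0.11, gave sums of 0.16 and 0.29, 1 member (Lars2) at least 2-fold higher, Gars1 at 0.0031, Tars1 at 0.044 and a cytosolic ribosomal median of 0.56. Thinning the wild-type library gave a cytosolic sum of 0.064. The GC and length correction, which gives no value for Mars2 or the sums, left 1 member at least 1.5-fold higher and put Farsa at -0.35, Kars1 at -0.14, Nars1 at 0.0078, Tars1 at 0.20, Wars1 at -0.0016, Yars1 at -0.14, Cars2 at -0.28, Ears2 at -0.099, Nars2 at 0.0062 and Sars2 at -0.21. It gave a median of 0.46 for the aspartyl and transamidation genes, which was -0.26 in the main setting. Other medians under this correction were -0.15 for mitochondrial ribosomal proteins, 0.23 for cytosolic ribosomal proteins and -0.048 for eIF2alpha kinases and partners. It left 1112 genes at least 2-fold lower. Genes at least 2-fold apart numbered 2625 lower and 3172 higher with no expression minimum and 927 higher with a minimum of 5 CPM, where fewer or more genes enter by construction. The cause of the other shifts was not tested. Hars1 and Yars2 were at least 2-fold lower in 10 of 10 settings. Settings that change only the expression minimum cannot move a member's ratio, and other scaling factors shift every gene by the same amount. Such tallies are therefore not independent checks.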
